A study of Mus musculus with 2 samples.

Results

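The genes described here are the 8 basement membrane genes Col4a1, Col4a2, Lama1, Lamb1, Lamc1, Nid1, Sparc and Serpinh1. They were chosen by symbol, and all 8 were found among the 55415 features of the count tables. Each matched its Ensembl identifier in the GENCODE annotation of the same mouse genome build, and all 8 are protein coding. Col4a1 lies at chr8:11198423-11312826 on the minus strand, Col4a2 at chr8:11312805-11449287 on the plus strand and Lama1 at chr17:67697259-67822647 on the plus strand. Lamb1 lies at chr12:31265234-31329644 on the plus strand, Lamc1 at chr1:153218922-153332786 on the minus strand and Nid1 at chr13:13437551-13512269 on the plus strand. Sparc lies at chr11:55394500-55423183 and Serpinh1 at chr7:99345376-99353239, both on the minus strand.

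A basement membrane is a thin sheet of extracellular matrix on which epithelia rest. Its scaffold is a network of collagen IV, built from alpha chains that wind into a triple helix, and a network of laminin, built from an alpha, a beta and a gamma chain. Nidogen links these networks, SPARC binds collagen in the matrix, and the chaperone HSP47 (gene Serpinh1) holds procollagen in the endoplasmic reticulum until it has folded. In the early mouse embryo the primitive endoderm and its parietal derivative, which lays down Reichert's membrane, are major producers of these proteins.

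The cells were mouse embryonic stem cells, which divide in culture and keep the capacity to form all tissues of the embryo. They were of a line that carries GFP under the promoter of the endogenous retrovirus MERVL and a histone H2B-mIFP fusion to track cells. The MERVL reporter marks a state that resembles the embryo at the 2-cell stage, in which the Zscan4 genes are transcribed. Single-cell libraries were made from MERVL-GFP positive and MERVL-GFP negative cells, 1 library per group. The labels give no strain, sex, treatment, time, clone or way of separating the cells, and their batch field repeats the group name, which means that a batch effect cannot be told apart from the group.

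With 1 library per group there was no replicate of either condition and no test was run. Every interval below is at 95% and covers counting error only, and each difference is a difference between these libraries or between cells of 1 library. The positive library held 4603 barcodes and 138364094 UMIs, and the negative library 3832 barcodes and 156406894 UMIs, with medians of 29554.5 and 39099.5 UMIs per kept cell. GFP stood at 205 CPM (counts of a gene per 1000000 counts of all genes) in the positive against 0.454 CPM in the negative, the direction of the labels. Of 12 pluripotency genes, 11 were at 10 CPM or more in each library. The libraries shared 3 barcodes, and leaving those cells out moved none of the counts of the 8 genes past the rule of size. Doublets were not removed, and without the cells whose depth passed 2 times the library's median, none of the counts of these 8 genes differed.

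Cells were also classed by transcripts outside the 8 genes. Gata6, a transcription factor that specifies primitive endoderm, and Dab2, an adaptor of endocytosis that is switched on in that lineage, defined the first class, and the 6 genes Zscan4a to Zscan4f defined the second. Each cell was first thinned to 10000 UMIs, so that depth did not set the class, and counted as holding a transcript with at least 1 UMI. Among 4402 thinned cells of the positive library, 1436 (32.6%) had neither, 502 (11.4%, 10.5 to 12.4) had Gata6 or Dab2 only, 1824 (41.4%) had Zscan4 only and 640 (14.5%) had both. Among 3824 cells of the negative library, 3361 (87.9%) had neither and 451 (11.8%, 10.8 to 12.9) had Gata6 or Dab2 only, while 10 had Zscan4 only and 2 had both, too few to describe. Levels in a class are the summed UMIs of its cells as CPM.

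The start regions of 4 of the genes are shown because of their arrangement or their place in the results that follow. RefSeq gives windows of 250 bases before and 50 after the start for 6 of the 8 genes, in build GRCm38.p6 (Lama1 and Lamc1 are not among them). Col4a1 and Col4a2 are transcribed in opposite directions from start sites 21 bases apart, and their annotated transcripts overlap by 22 bases at the 5′ ends. The sources used here do not say whether counting used strand, so reads that fall within that overlap cannot be assigned to either gene with certainty. Serpinh1 and Nid1 are the genes with the largest and the smallest ratio between Gata6/Dab2 cells and other cells of the positive library. The windows are read 5′ to 3′ on the gene's own strand, at chr8:11312777-11313076 (minus strand) for Col4a1, chr8:11312555-11312854 (plus strand) for Col4a2, chr7:99353190-99353489 (minus strand) for Serpinh1 and chr13:13437352-13437651 (plus strand) for Nid1. Capitals mark matches to CCAAT or GGGCGG on either strand, so that a match on the other strand reads ATTGG or CCGCCC.
Col4a1: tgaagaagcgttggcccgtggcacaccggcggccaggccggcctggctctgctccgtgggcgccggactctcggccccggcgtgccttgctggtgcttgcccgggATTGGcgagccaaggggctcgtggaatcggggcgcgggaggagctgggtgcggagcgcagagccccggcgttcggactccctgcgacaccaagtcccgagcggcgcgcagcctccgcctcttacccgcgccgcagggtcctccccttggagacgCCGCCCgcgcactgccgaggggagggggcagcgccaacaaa
Col4a2: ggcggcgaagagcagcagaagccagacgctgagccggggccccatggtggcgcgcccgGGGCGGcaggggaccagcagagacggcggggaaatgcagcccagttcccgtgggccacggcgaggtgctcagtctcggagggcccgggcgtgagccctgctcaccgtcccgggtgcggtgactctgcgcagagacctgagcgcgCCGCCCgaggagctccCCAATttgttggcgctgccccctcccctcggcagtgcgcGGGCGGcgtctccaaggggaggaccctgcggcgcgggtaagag
Serpinh1: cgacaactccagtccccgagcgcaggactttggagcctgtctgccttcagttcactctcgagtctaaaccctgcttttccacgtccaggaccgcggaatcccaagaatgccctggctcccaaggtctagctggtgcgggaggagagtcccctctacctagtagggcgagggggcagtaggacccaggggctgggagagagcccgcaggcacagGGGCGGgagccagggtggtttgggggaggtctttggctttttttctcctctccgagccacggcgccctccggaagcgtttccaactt
Nid1: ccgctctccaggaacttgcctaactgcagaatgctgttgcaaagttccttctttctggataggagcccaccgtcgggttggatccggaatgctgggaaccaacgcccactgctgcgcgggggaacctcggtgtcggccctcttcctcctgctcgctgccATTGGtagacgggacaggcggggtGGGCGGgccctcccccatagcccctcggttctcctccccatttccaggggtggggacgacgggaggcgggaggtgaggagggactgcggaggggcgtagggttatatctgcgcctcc
The Col4a1 and Col4a2 windows overlap by 78 bases. GC content was 74% in the Col4a1 window, 73.7% for Col4a2, 62.3% for Serpinh1 and 64.7% for Nid1. The RefSeq start of Sparc lies 3103 bases from the start of the gene in GENCODE, so its window may not hold the start in use and was left out of the counts that follow. CCAAT stood in 4 of the other 5 windows (Col4a1, Col4a2, Lamb1 and Nid1), against 37.4% of all 32851 windows of the same length. GGGCGG stood in 5 of the 5, against 35.7% of all windows. None of the 5 held GATAA (25.4% of all windows), TATAAA (13.6%), ACAAT (31.0%) or GAANNTTC (7.86%) on either strand. Within a window the marked matches did not overlap each other. Across the collagen IV windows, 1 site is marked in both: the last GGGCGG of Col4a2 and the CCGCCC of Col4a1 are the same bases, chr8:11312812-11312817. All matches are descriptions of letters in these windows.

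Over all cells, 6 of the 8 genes were at least 2-fold higher in the positive than in the negative library by the rule of size used here (a ratio of CPM + 1 of at least 2, among genes at 10 CPM or more on either side and with 50 UMIs). All 8 passed that filter in each comparison below. Col4a2 passed it through the higher side alone in 2 of them, the comparison of libraries in cells with neither transcript set and that by Gata6/Dab2 in the negative library, so its place in those counts follows from the filter. Of all 8042 genes so compared, 7.01% were higher by the same rule and 0.995% lower. At a ratio of at least 4, where 3% of all genes were higher, the count was 0 of 8. The median log2 ratio was 1.23 over the 8 genes and 0.14 over all genes compared. The count depended on scaling. With TMM or median-of-ratios factors, under which the median of all genes moved to -0.16, the count was 3 (Col4a1, Col4a2 and Lamb1), and with TMM factors the background was 4.75% higher and 3.27% lower.

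Both collagen IV chains, which form the most common collagen IV molecule, stood higher in the positive library. Col4a1 was at 128 CPM (126 to 130) in the positive library against 46.5 CPM (45.5 to 47.6) in the negative one, a ratio of 2.74. Col4a2 was at 61.0 CPM in the positive and 18.3 CPM in the negative library, a ratio of 3.33, the largest among the 8. The laminin chains alpha 1 (Lama1), beta 1 (Lamb1) and gamma 1 (Lamc1), which assemble into laminin-111, were also higher, by smaller ratios. Lama1 was at 74.7 and 32.7 CPM in the positive and negative library, a ratio of 2.28. Lamb1 was at 93.7 and 34.5 CPM, a ratio of 2.71. Lamc1 was at 190 and 83.7 CPM, a ratio of 2.27. These laminin ratios had counting intervals that all lay above 2. Sparc was at 326 CPM in the positive and 133 CPM in the negative library, a ratio of 2.45. Serpinh1 was at 92.8 and 49.5 CPM, a ratio of 1.88 (1.83 to 1.93), and stayed under the rule of size. Nid1, the linker, did not follow the others. Its level was 21.8 CPM (21.0 to 22.6) in positive-library and 24.4 CPM (23.6 to 25.1) in negative-library cells, a ratio of 0.895.

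The libraries also differed in how many of their cells carried Gata6 or Dab2 transcripts, 25.9% of thinned cells in the positive and 11.8% in the negative library. The values within classes of cells are therefore given next.

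Among cells with neither Gata6/Dab2 nor Zscan4 transcripts, 4 of the 8 genes (Col4a1, Col4a2, Lamb1 and Sparc) were at least 2-fold higher in the positive library, against 3.46% of 7793 genes compared. With a ratio of at least 4 the count was 0 of 8, and 1.01% of all genes passed. Col4a1 was at 43.0 CPM in the 1436 positive-library cells and 13.2 CPM in the 3361 negative-library cells, a ratio of 3.26 (3.06 to 3.47). Col4a2 was at 16.4 and 4.67 CPM, a ratio of 3.51 (3.16 to 3.90). Lamb1 was at 26.3 and 11.2 CPM, a ratio of 2.35. Sparc was at 151 and 73.6 CPM, a ratio of 2.06. Lamc1 was at 105 and 58.8 CPM, a ratio of 1.78, and Lama1 at 16.8 and 11.7 CPM, a ratio of 1.43. Neither of these laminin chains reached the rule of size. Nid1 was at 22.8 and 23.1 CPM, a ratio of 0.989 with an interval (0.923 to 1.06) that spans 1. Serpinh1 was at 17.7 and 19.5 CPM, a ratio of 0.905 (0.837 to 0.978). The sign of the Serpinh1 value was not stable: it was above 0 with classes from 5000 UMIs, from Gata6 alone and from Dab2 alone, and the Nid1 value was above 0 with classes from all UMIs. The count of 4 became 2 under TMM or median-of-ratios factors and with classes from Dab2 alone. TMM factors also moved the background to 1.90% higher and 1.62% lower of all genes compared, from 3.46% and 0.423%.

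Endoderm transcripts moved with this result. The 15 primitive endoderm markers summed to 54.6 CPM in the positive and 30.5 CPM in the negative cells of this class, with Dab2 at 5.67 and 2.17 CPM and Gata6 at 3.53 and 2.28 CPM among the UMIs that thinning had left out. The reporter and depth moved with it too: GFP was at 113 and 0.371 CPM, Zscan4d at 10.6 and 0.102 CPM, and the median cell held 33129 and 39240 UMIs. Their part in the result was not tested.

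Among cells with Gata6 or Dab2 but no Zscan4 transcripts, 0 of the 8 genes reached a 2-fold difference between the libraries, where 4.08% of 7918 genes were higher and 0.619% lower by that rule. Values in the 502 positive-library cells were nevertheless above those in the 451 negative-library cells for 7 of the 8. Collagen IV was at 402 against 294 CPM for Col4a1 and at 197 against 120 CPM for Col4a2. Laminin was at 256 against 188 CPM for Lama1, 304 against 208 CPM for Lamb1 and 474 against 269 CPM for Lamc1. Sparc was at 855 against 575 CPM and Serpinh1 at 346 against 271 CPM, while Nid1 was the exception at 28.2 against 33.5 CPM. The ratios ran from 0.842 (Nid1) to 1.76 (Lamc1), with a median log2 ratio of 0.50 against 0.11 over all genes compared. Most of all genes compared were thus also higher by some amount. Dab2 itself was at 331 and 157 CPM and Gata6 at 294 and 339 CPM in these classes, and their part in the result was not tested. With classes taken from all UMIs of each cell, which put 385 and 946 cells into the class, 5 of the 8 genes passed the rule, against 3.83% of all genes higher and 0.542% lower, and the median was 1.08 against 0.14 over all genes. The Nid1 difference turned to a log2 ratio of 0.02 with classes from all UMIs, 1 of 14 settings tried. The median of the 8 was 0.33 with TMM or median-of-ratios factors and 0.27 with classes from Dab2 alone.

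**Figure D1:**
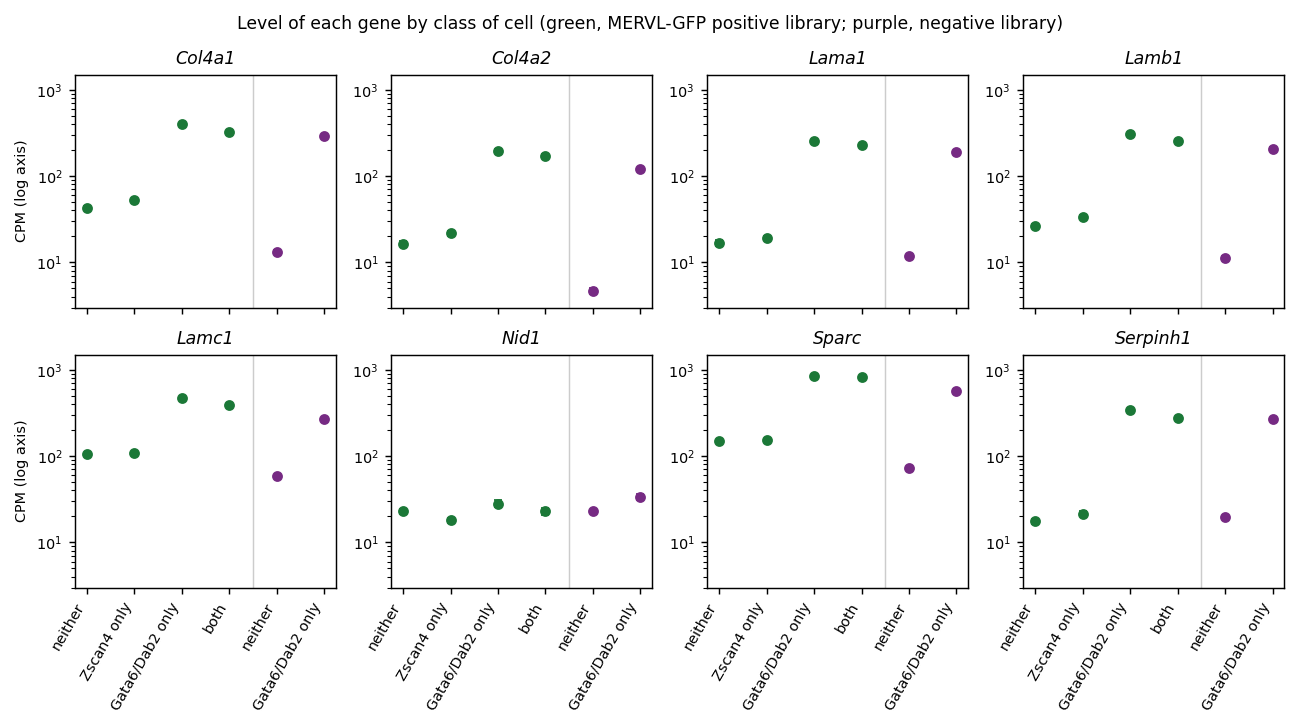
Each panel plots the level of 1 gene in CPM (log axis) in 6 classes of cells, 4 of the MERVL-GFP positive library (green) and 2 of the negative library (purple); points are summed UMIs and bars, where wider than the point, 95% Poisson intervals. All genes but Nid1 sit far higher in the classes with Gata6 or Dab2 transcripts (Serpinh1 at 346 and 277 CPM in the positive and 271 CPM in the negative library, against 17.7 to 21.6 CPM elsewhere), while Nid1 rises less and stays between 18.0 and 33.5 CPM.

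The difference between cells with and without Gata6/Dab2 transcripts was larger than that between the libraries. Within the cells without Zscan4, 7 of the 8 genes were at least 2-fold higher with Gata6 or Dab2 in the positive library, where 3.47% of 8033 genes were, and 7 of 8 in the negative library, where 2.71% of 7418 genes were. Over all genes compared, 0.411% and 0.027% were lower by the rule, none of them among the 8. The 7 genes were the same in both, all but Nid1. The same 7 of 8 passed at a ratio of at least 4, against 0.983% and 1.08% of all genes compared. The median log2 ratio of the 8 was 3.34 in the positive and 3.81 in the negative library, against -0.01 and 0.02 over all genes compared. A count of 7 held under each of the 16 other settings tried in both libraries. The size of the ratios did vary: the median log2 ratio ran from 2.75 to 4.06 in the positive and from 2.81 to 4.64 in the negative library. All 8 genes had their lowest values with classes from all UMIs, where Col4a1 in the negative library went from a log2 ratio of 4.37 to 3.31.

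Serpinh1, the collagen chaperone, had the largest ratio of the 8 in the positive library, from 17.7 CPM without to 346 CPM with Gata6 or Dab2, or 19.5 (18.2 to 21.0). In the negative library it went from 19.5 to 271 CPM, a ratio of 13.9. Its collagen clients gave larger ratios in the negative library, where their levels without Gata6/Dab2 were lower. Col4a1 had a ratio of 9.36 (8.91 to 9.83) in the positive and 22.2 (21.1 to 23.4) in the negative library. Col4a2 had ratios of 12.0 (11.1 to 13.0) and 25.6 (23.4 to 28.0). Both collagen IV intervals thus lay apart between the libraries, as counting error goes.

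Of the laminin chains, Lama1 had ratios of 15.3 (14.2 to 16.5) in the positive and 16 (15.1 to 17.0) in the negative library. Lamb1 had 11.6 in the positive and 18.5 in the negative library. Lamc1 had 4.52 and 4.58, the closest pair of values and the smallest of the 3 chains in either library. Its level without Gata6/Dab2 transcripts, 105 and 58.8 CPM, thus was a larger share of its level with them than for the alpha and beta chains. Sparc had ratios of 5.65 and 7.82. Nid1 had 1.24 (1.11 to 1.38) and 1.45 (1.33 to 1.58), above 1 in both libraries and under the rule of size. In cells that passed as holding Gata6 or Dab2, neither the number of cells at a high level nor the level per cell is fixed by these sums, and the distribution over cells is given further on.

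**Figure D2:**
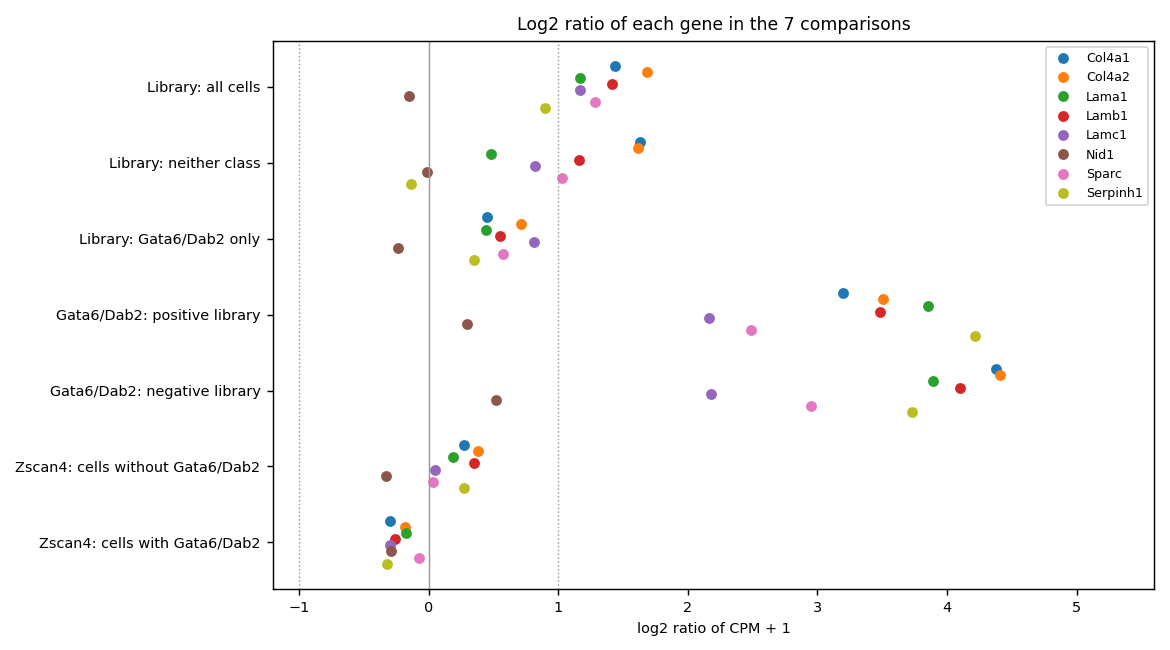
The horizontal axis is the log2 ratio of CPM + 1, with 1 coloured point per gene in each of the 7 comparisons on the vertical axis (positive over negative library for the first 3, with over without the named transcripts for the rest); dotted lines mark the 2-fold rule. The Gata6/Dab2 comparisons put 7 genes between 2.17 and 4.41 and Nid1 at 0.29 and 0.52, and the Zscan4 comparisons put all 8 between -0.33 and 0.38.

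The relative amounts of the genes shifted between the classes. For each UMI of Col4a1, Serpinh1 had 0.411 in positive-library cells with neither transcript set and 0.859 in those with Gata6 or Dab2 only, but 1.48 and 0.923 in the negative library. This pair thus moved in opposite directions in the libraries. For each UMI of Lama1, Lamc1 had 6.26 and 1.85 in the positive and 5.01 and 1.43 in the negative library. Col4a1 per Col4a2 stayed closer, 2.62 and 2.04 in the positive and 2.83 and 2.46 in the negative library. Of all UMIs of the 8 genes, Nid1 made up 10.7% in negative-library cells with neither transcript set and 1.71% in those with Gata6 or Dab2.

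Thinned cells showed the same split by shares. Serpinh1 UMIs were found in 15.7% (13.9 to 17.7) of positive-library cells with neither transcript set and 55.4% (50.9 to 59.8) of those with Gata6 or Dab2 only. In the negative library they were found in 18.2% (16.9 to 19.6) and 50.3% (45.6 to 55.0) of these classes. Before thinning, the same shares were 38.6% and 70.7% in the positive and 47.9% and 69.4% in the negative library. Col4a2 was found in 14.4% and 56.6% of the positive-library classes and 4.67% and 40.6% of the negative-library classes (38.4%, 72.7%, 15.9% and 55.4% before thinning). Nid1 was found in 20.3% and 23.3% in the positive and 20.1% and 31.3% in the negative library (46.8%, 51.6%, 54.0% and 65.4% before thinning). The classes had medians of 33129, 31635.5, 39240 and 38628 UMIs before thinning. No cell type known to lack these genes was present, so the share that free RNA alone would give was not measured.

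The class with Gata6 or Dab2 was mixed. The summed UMIs of the 8 genes per thinned cell had a median of 12 in the positive library, with quartiles of 5 and 49.75 and a highest value of 196. In the negative library the median was 6, the quartiles were 2 and 34 and the highest value was 131. Cells with neither transcript set had medians of 4 and 2, and 3.06% and 15.4% of them had 0 UMIs of the 8 genes. A sum of 20 or more was found in 46.0% and 35.7% of Gata6/Dab2 cells and in 0.348% and 0.0298% of cells with neither. At least 7 of the 8 genes were detected in 40.4% of Gata6/Dab2 cells of the positive and 30.8% of the negative library, against 0.139% and 0.0298% of cells with neither. At the other end, 21.1% of positive-library and 39.0% of negative-library Gata6/Dab2 cells had 2 or fewer of the genes detected.

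**Figure D3:**
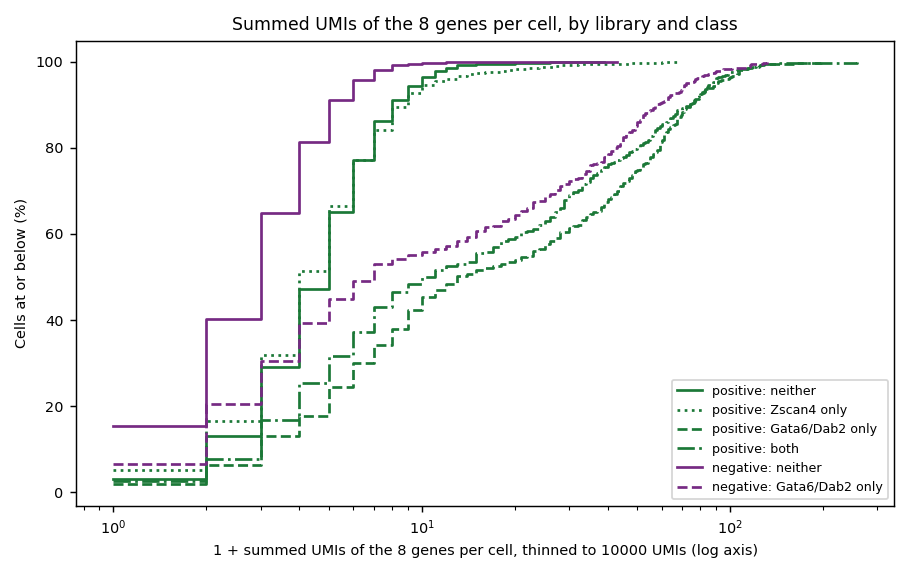
Curves give the percentage of cells (vertical axis) at or below each summed UMI count of the 8 genes plus 1 (horizontal log axis) in thinned cells, by class, green for the positive and purple for the negative library. Few cells without Gata6/Dab2 reach 10 UMIs (3.48% and 5.32% in the positive and 0.298% in the negative library), while the classes with it have a long upper range, 46.0%, 40.6% and 35.7% of their cells being at 20 or more.

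The levels also followed how many Gata6 and Dab2 UMIs a thinned cell held. These bins were chosen after seeing the data. In the positive library, Serpinh1 was at 19.7, 46.0, 216, 462 and 833 CPM in cells with 0, 1, 2 to 4, 5 to 9 and 10 or more such UMIs. The negative-library values were 19.5, 29.3, 299, 395 and 649 CPM. The largest ratio between neighbouring bins was that from 1 UMI to 2 to 4 UMIs in both libraries. From 0 to 10 or more UMIs the ratio was 42.3 for Serpinh1, 35.5 for Lama1, 25.2 for Col4a2, 23.0 for Lamb1, 19.1 for Col4a1, 11.7 for Sparc and 8.57 for Lamc1 in the positive library. In the negative library it was 33.2 for Serpinh1, 41.2 for Lama1, 65.7 for Col4a2, 43.8 for Lamb1, 57.6 for Col4a1, 16.9 for Sparc and 9.18 for Lamc1. Each of these genes went up at all 4 steps in both libraries. Nid1 also went up at all 4 steps in the positive library and at 3 of 4 in the negative, by smaller amounts. It had ratios of 1.71 (1.5 to 1.95) and 1.76 (1.5 to 2.06) over the same range, from 20.3 to 34.8 CPM in the positive and 23.1 to 40.7 CPM in the negative library. The bins held 3260, 547, 195, 159 and 241 cells in the positive and 3371, 214, 47, 90 and 102 cells in the negative library.

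**Figure D4:**
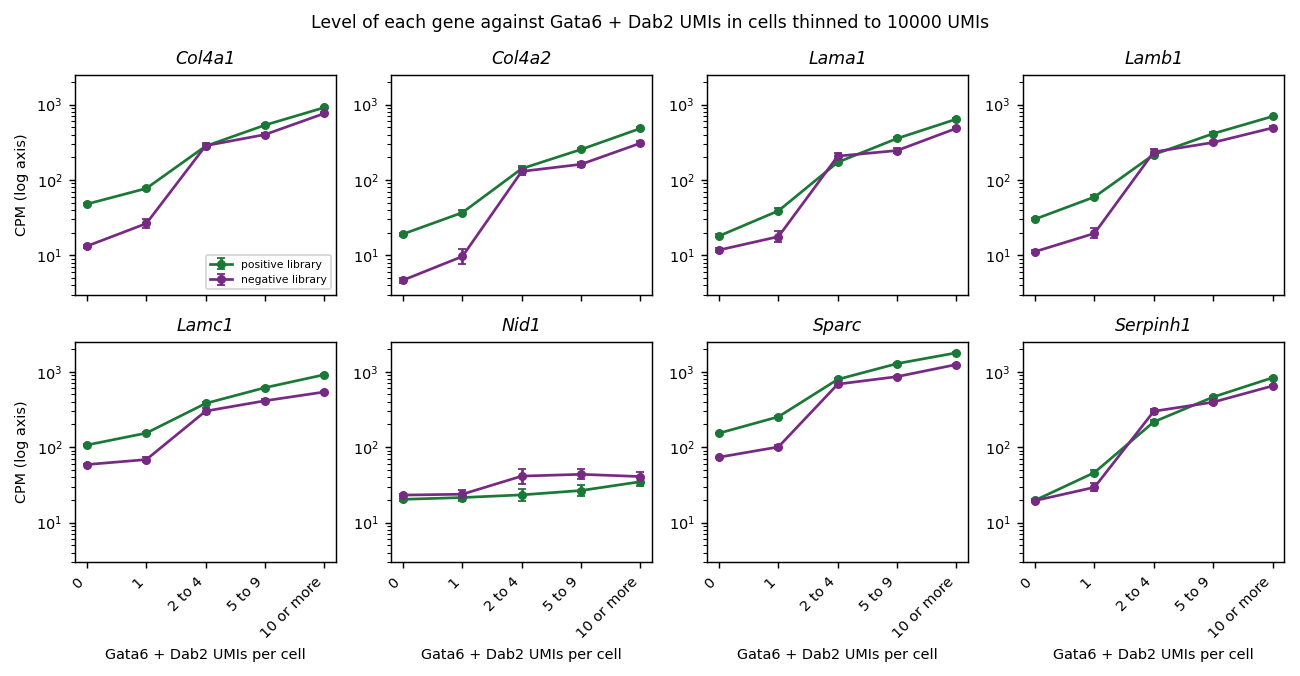
Each panel plots the level of 1 gene in CPM (log axis) against the Gata6 plus Dab2 UMIs per thinned cell, for the positive (green) and negative (purple) library, with 95% Poisson intervals. The collagen IV, laminin, Sparc and Serpinh1 curves climb at every step in both libraries, and the collagen IV curves lie furthest apart at 0 and 1 UMI (Col4a2 at 19.1 and 4.67 CPM at 0 UMIs), while Nid1 lies between 20.3 and 43.6 CPM, climbing at all 4 steps in the positive and at 3 of 4 in the negative library.

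The values also differed by which of the marker transcripts a cell held, a split chosen after seeing the data. Cells with both Gata6 and Dab2 had Col4a1 at 743 CPM in the positive (349 cells) and 715 CPM in the negative library (133 cells). Cells with Gata6 alone had 159 and 144 CPM. Those with Dab2 alone had 191 CPM in the positive (459 cells) but 34.4 CPM in the negative library (105 cells), against 47.8 and 13.2 CPM in cells with neither. The libraries thus lay close for Col4a1 with both transcripts or Gata6 alone and apart with Dab2 alone. Lama1 followed the same order, at 515, 88.5 and 120 CPM with both, Gata6 alone and Dab2 alone in the positive library, and at 459, 90.7 and 23.5 CPM in the negative. Dab2 itself was at 226 and 34.9 CPM in the Dab2-alone cells of the positive and negative library, and its part in the difference was not tested.

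A minority of the cells held most UMIs of all the genes but Nid1 in the positive library, and of all but Nid1 and Lamc1 in the negative library. Cells with at least 1 Gata6 or Dab2 UMI made up 25.9% of positive-library cells and held 25.3% of all UMIs, yet 84.2% of Serpinh1, 81.9% of Lama1, 76.5% of Col4a2, 75.7% of Lamb1 and 72.0% of Col4a1 UMIs. They held 64.8% of Sparc, 57.6% of Lamc1 and 29.8% of Nid1 UMIs. In the negative library such cells were 11.8% of cells with 11.9% of all UMIs. They held 77.5% of Col4a2, 74.9% of Col4a1, 71.3% of Lamb1, 68.2% of Lama1 and 65.1% of Serpinh1 UMIs, then 51.2% of Sparc, 38.1% of Lamc1 and 16.3% of Nid1. Nid1 and then Lamc1 had the smallest shares in these cells in both libraries.

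Zscan4 transcripts, the mark of the 2-cell-like state, went with small differences. In positive-library cells without Gata6 or Dab2, 0 of the 8 genes reached a 2-fold difference between the 1824 cells with and the 1436 cells without Zscan4, where 3.25% of 8051 genes were higher and 0.0248% lower. Col4a1 was at 52.2 CPM with and 43.0 CPM without Zscan4, a ratio of 1.21 (1.15 to 1.29). Col4a2 was at 21.6 and 16.4 CPM, Lamb1 at 33.8 and 26.3 CPM and Serpinh1 at 21.6 and 17.7 CPM. Lama1 was at 19.2 and 16.8 CPM. These 5 genes were higher with Zscan4 by ratios between 1.15 and 1.32. Lamc1 was at 108 and 105 CPM and Sparc at 155 and 151 CPM, ratios of 1.03 and 1.02 whose intervals span 1. Nid1 was lower, at 18.0 against 22.8 CPM, a ratio of 0.787 (0.721 to 0.859). By any size, 44.2% of all genes compared were higher with Zscan4. The median log2 ratio of 0.23 turned to -0.06 when classes were taken from all UMIs, where Col4a1, Lama1, Lamc1, Sparc and Serpinh1 changed sign. Depth moved with the class, with medians of 28092 UMIs with and 33129 without Zscan4. Its part in the result was not tested.

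Among cells with Gata6 or Dab2, the values with Zscan4 were lower for all 8 genes, again with 0 of 8 at a 2-fold difference (background 3.53% higher and 0.124% lower of 8068 genes). Col4a1 was at 328 CPM in the 640 cells with and 402 CPM in the 502 cells without Zscan4, and Col4a2 at 173 and 197 CPM. Lama1 was at 226 and 256 CPM, Lamb1 at 255 and 304 CPM and Lamc1 at 386 and 474 CPM. Sparc was at 814 and 855 CPM, Serpinh1 at 277 and 346 CPM and Nid1 at 22.9 and 28.2 CPM. The ratios ran from 0.801 (Serpinh1) to 0.952 (Sparc), with a median log2 ratio of -0.27 against -0.07 over all genes compared. Most of all genes compared were thus also lower by some amount. The sign of the Sparc value turned under median-of-ratios factors, with classes from 5000 UMIs and with classes that need 2 UMIs. Gata6 was at 172 CPM with and 294 CPM without Zscan4, and Dab2 at 290 and 331 CPM.

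Cells matched for Gata6 and Dab2 UMIs were compared next, in bins chosen after seeing the data. Of cells with 10 or more such UMIs, 101 had Zscan4 and 140 did not. Serpinh1 was at 833.6 CPM with and 833.2 CPM without Zscan4, Col4a1 at 905 and 919 CPM, Lamb1 at 701 and 693 CPM and Nid1 at 34.3 and 35.1 CPM. Col4a2 was at 516 and 460 CPM, Lama1 at 677 and 618 CPM, Sparc at 1848 and 1743 CPM and Lamc1 at 882 and 936 CPM. In this bin 5 genes were thus higher and 3 lower with Zscan4, with a median log2 ratio of 0.008 over the 8 and -0.07 over all genes compared. The other bins differed in direction. Over all genes compared, 41.5%, 38.3%, 40.3% and 38.3% were higher with Zscan4 by any size in cells with 1, 2 to 4, 5 to 9 and 10 or more such UMIs. With 1 such UMI (326 cells with and 221 without Zscan4), 7 of the 8 were higher with Zscan4, Lama1 at 52.5 against 21.9 CPM and Serpinh1 at 55.7 against 33.9 CPM, and Nid1 was lower at 19.0 against 24.5 CPM. With 2 to 4 (128 and 67 cells), 7 of the 8 were lower with Zscan4, Col4a1 at 248 against 333 CPM, and Sparc was higher at 846 against 707 CPM. Gata6 itself was at 112 against 217 CPM in that bin, and its part in the result was not tested. With 5 to 9 (85 and 74 cells), 8 of 8 were higher with Zscan4, Col4a1 at 577 against 487 CPM and Serpinh1 at 497 against 426 CPM.

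More Zscan4 UMIs did not give a steady change. In cells without Gata6 or Dab2, Col4a1 was at 43.0, 46.6, 60.8, 58.5 and 44.9 CPM with 0, 1, 2 to 4, 5 to 9 and 10 or more Zscan4 UMIs. Lamb1 was at 26.3, 28.2, 38.0, 34.8 and 39.5 CPM, and Nid1 at 22.8, 20.2, 17.2, 17.9 and 13.5 CPM. From 0 to 10 or more Zscan4 UMIs, the ratio was 1.5 (1.33 to 1.70) for Lamb1 and 0.590 (0.481 to 0.719) for Nid1, the most distant in each direction. The median depth before thinning was 33129 UMIs in the first and 20691.5 UMIs in the last of these bins.

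The genes varied together across cells with endoderm transcripts. In cells with 5 or more Gata6 and Dab2 UMIs, Pearson's r of log(1 + thinned UMIs) over the 21 pairs without Nid1 had a median of 0.54 in the positive (400 cells) and 0.62 in the negative library (192 cells). The highest pair was Col4a1 with Col4a2 in the positive library, at 0.67, and Col4a1 with Lama1 in the negative, at 0.71. The 7 pairs with Nid1 had medians of 0.12 and 0.11. In cells with 0 Gata6 or Dab2 UMIs, the medians of the 21 pairs were 0.11 and 0.03. All cells of a library share its preparation and a fixed depth of 10000 UMIs, and sparse counts lower r, so these values are descriptions.

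**Figure D5:**
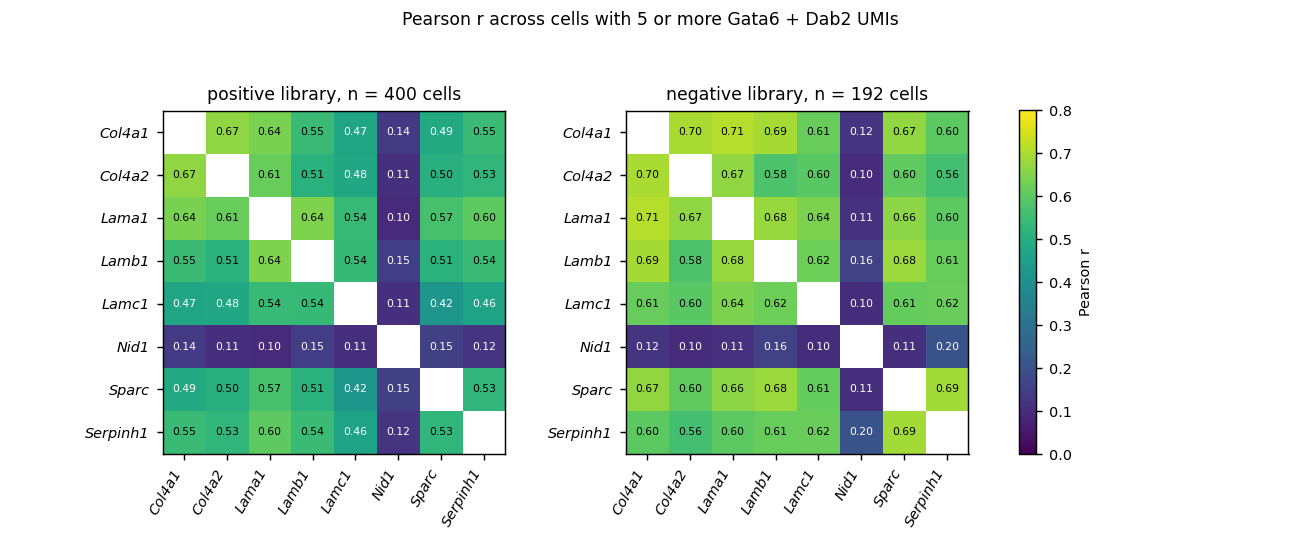
Colour and printed value give Pearson's r for each pair of genes across cells with 5 or more Gata6 plus Dab2 UMIs, in the positive library (left, 400 cells) and the negative library (right, 192 cells). The Nid1 row and column are dark, at 0.10 to 0.20, and the other pairs lie at 0.42 to 0.71.

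The 10 other genes whose thinned UMIs followed the sum of the 8 most closely were named by the smaller of their r values in the libraries, over 4402 and 3824 cells and among 8679 genes. Gata6 came first at 0.585, then Fbp2 (a fructose bisphosphatase) at 0.577, the forkhead factor Foxq1 at 0.553, the proteoglycan Srgn at 0.546, Dab2 at 0.540 and the receptor chaperone Lrpap1 at 0.530. Pdgfra, a growth factor receptor of primitive endoderm, followed at 0.520, and 2210409E12Rik, Shkbp1 and Flrt3 closed the list at 0.491, 0.475 and 0.439. At 5000 UMIs, where 6688 genes could be ranked, Gata6, Fbp2, Lrpap1, 2210409E12Rik and Shkbp1 held the first 5 ranks. The other 5 of the 10 were detected in under 5% of cells of at least 1 library at that depth and could not be ranked. These r values are over all cells. Within cells with 5 or more Gata6 and Dab2 UMIs, r of Gata6 with the 8 genes ran from -0.16 to 0.13 in the positive and from -0.38 to -0.01 in the negative library. In the same cells r of Dab2 with the 7 genes other than Nid1 ran from 0.27 to 0.46 and from 0.51 to 0.65, and with Nid1 it was 0.06 and 0.05. Dab2 and Gata6 share the cut that chose these cells. Lrpap1 was at 74.6 and 385 CPM in positive-library cells without and with Gata6 or Dab2, and Fbp2 at 20.2 and 221 CPM.

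Other structural genes of the basement membrane were read in the same comparison, in which 3.47% of all genes were higher in the positive and 2.71% in the negative library. Of 22 listed, 5 passed the filter on low values and 1 of those was at least 2-fold higher in each library. That gene was Hspg2, which encodes perlecan, at 106 CPM with and 36.9 CPM without Gata6 or Dab2 in the positive and 75.8 and 30.2 CPM in the negative library. Nid2, the paralogue of Nid1, was at 39.4 and 40.6 CPM in the positive and 36.1 and 33.3 CPM in the negative library. Col18a1 was lower with Gata6 or Dab2, at 42.4 against 61.2 CPM in the positive and 35.3 against 48.8 CPM in the negative library. The median log2 ratio of these 5 was 0.23 in the positive and 0.11 in the negative library, against -0.01 and 0.02 over all genes compared.

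Enzymes and carriers that mature or export collagen lay between. Of 16 listed, 13 passed the filter and 5 were at least 2-fold higher with Gata6 or Dab2 in each library, with a median log2 ratio of 0.66 and 0.76. The prolyl 4-hydroxylase subunit P4ha2 was at 202 and 39.6 CPM in the positive and 43.9 and 7.55 CPM in the negative library. P4ha1, the alternative subunit, was at 115 and 36.5 CPM in the positive and 104 and 21.8 CPM in the negative library. The lysyl hydroxylase Plod2 was at 137 and 50.3 CPM and at 105 and 30.7 CPM. Creb3l2, a transcription factor of the secretory pathway, was at 30.5 and 5.63 CPM and at 26.0 and 2.87 CPM. Creb3l2 in both libraries, Plod1 in the positive and P4ha2 in the negative passed the filter through the higher side alone. Their place in these counts thus follows from the filter. P4ha2 also passed the rule where none of the 8 genes did: in cells without Gata6 or Dab2 it was at 90.1 CPM with and 39.6 CPM without Zscan4. Over all cells it was at 107 CPM in the positive and 11.9 CPM in the negative library. Of 11 receptors for laminin or collagen, 6 and 5 passed the filter in the positive and negative library and 1, the syndecan Sdc4, was at least 2-fold higher with Gata6 or Dab2 in each, at 307 and 88.0 CPM and at 371 and 60.6 CPM.

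Markers of other cell types and states were read beside the 8 genes. The 15 primitive endoderm markers, which include the class genes themselves, summed to 1318 CPM in Gata6/Dab2 cells of the positive and 1183 CPM of the negative library, against 54.6 and 30.5 CPM in cells with neither. Of the 12 that passed the filter, 11 did so through the Gata6/Dab2 cells alone, so their number is no finding. The 7 parietal endoderm markers summed to 59.1 CPM in Gata6/Dab2 cells against 15.1 CPM in cells with neither in the positive library, and to 47.3 against 12.0 CPM in the negative. Most of this was Snai1, at 35.8 against 4.54 CPM and 9.26 against 0.953 CPM, and Fst, at 15.7 against 6.59 CPM and 27.8 against 6.11 CPM. The thrombomodulin gene Thbd was at 0 UMIs in Gata6/Dab2 cells of the positive library and at 0.162 CPM in those of the negative. The 7 visceral endoderm markers summed to 994 CPM in Gata6/Dab2 cells against 461 CPM in cells with neither in the positive library, and to 956 against 555 CPM in the negative. Apoe (at 700 against 280 CPM and 683 against 429 CPM) and Rhox5 (at 287 against 172 CPM and 269 against 125 CPM) were the 2 that passed the filter, and Ttr was at 0 UMIs in the Gata6/Dab2 cells of both libraries.

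The 10 trophoblast markers summed to 228 CPM in Gata6/Dab2 cells and 98.0 CPM in cells with neither in the positive library, with 2 of 4 tested at least 2-fold higher, and to 71.5 and 66.4 CPM in the negative, with 1 of 3. By the same rule, 3.47% and 2.71% of all genes compared were higher. The epithelial keratin gene Krt8 was at 90.5 against 21.0 CPM in the positive and 21.8 against 5.85 CPM in the negative library, and Krt18 at 92.6 against 27.8 CPM and 12.1 against 7.61 CPM. In the negative library both keratin genes passed the filter through the Gata6/Dab2 cells alone. Krt8 was the 1 of 3 there, so that count follows from the filter. Between the libraries over all cells, Krt18 was at 36.7 in the positive and 8.13 CPM in the negative and Krt8 at 31.7 and 7.74 CPM. Tfap2c, a transcription factor on the same list, went the other way at 18.4 and 39.5 CPM, and was also lower with Gata6 or Dab2, at 17.0 against 26.5 CPM in the positive and 25.5 against 41.4 CPM in the negative library. Of the 12 pluripotency markers, 2 were at least 2-fold lower with Gata6 or Dab2 in the positive library and 0 of the 11 tested in the negative, with median log2 ratios of -0.84 and -0.39. By the same rule, 0.411% and 0.027% of all genes compared were lower. Prdm14, 1 of the 2, passed the filter through the cells with neither transcript set alone, so its place in that count follows from the filter. Sall4 and Tbx3 were higher with Gata6 or Dab2, Sall4 at 310 against 192 CPM in the positive and 167 against 145 CPM in the negative library and Tbx3 at 589 against 500 CPM and 404 against 240 CPM. The 12 summed to 3168 CPM in Gata6/Dab2 cells and 4723 CPM in cells with neither in the positive library and to 3311 and 4379 CPM in the negative. Genes of the 2-cell-like state, 16 listed, summed to 183 and 83.3 CPM in these classes of the positive library and to under 1 CPM in those of the negative. The part of these markers in the differences of the 8 genes was not tested.

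The 14 fibroblast markers summed to 24.9 CPM in the positive and 9.22 CPM in the negative library over all cells, to 23.0 and 9.16 CPM in cells with neither transcript set, and to 19.8 and 9.58 CPM in Gata6/Dab2 cells. They were thus higher in the positive library and close between classes within a library. Thy1 was at 9.29 CPM in the positive and 2.15 CPM in the negative library over all cells, and Col5a1 at 5.85 and 2.56 CPM. Col3a1, Dcn, Lum and Postn were each at 0.0748 CPM or less in all of these classes. The 8 endothelial markers summed to 63.6 CPM in the positive and 37.0 CPM in the negative library in cells with neither, and to 54.5 and 37.0 CPM in Gata6/Dab2 cells. These sums moved with the difference between the libraries, and their part in it was not tested.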

How the data were processed

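Transcripts of single mouse embryonic stem cells were counted in 1 MERVL-GFP positive and 1 MERVL-GFP negative library. The deposited tables hold raw counts, as whole numbers for each gene in each cell. They were read here as unique molecular identifiers (UMIs), given the 16-base barcodes and the single-cell source in the labels. Molecule counting is not given in the sources used here, and the labels' extraction text describes total RNA and library kits without a capture step. The submitters' processing notes name FastQC 0.11.2, Trim Galore 0.6.4, STAR 2.7.6a and mm10, without settings.

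Cells were kept with at least 1000 UMIs, 500 genes and at most 20% mitochondrial UMIs, which removed 7 and 0 cells. The 194 and 8 kept cells under 10000 UMIs were left out of the classes and thinned shares. Summed UMIs were scaled to CPM over all genes, and log2 ratios use CPM + 1. Intervals are exact: Poisson for sums, conditional binomial for ratios and Clopper-Pearson for shares, all at 95%. PCR duplicates that were not collapsed would make them too narrow.

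The 8 genes and all lists were chosen with earlier results of these data known, so counts over them are descriptions. Named from each other list were at most 4 genes with the largest absolute log2 ratio in a comparison, plus the 10 genes most like the 8. Nid2, Plod1, Thbd, Ttr, Tbx3, Sall4 (with and without Gata6/Dab2) and the fibroblast genes were named outside this rule after their values were seen. Alternatives changed scaling, pseudocount, filters, doublets, class depth, class genes and the threshold. The ratio rule, its interval and the thinning were tested on simulated data. Sums and intervals used scipy 1.17.1, numpy 2.4.6 and pandas 2.3.3 under Python 3.11.15, and TMM factors came from edgeR 4.0.16 under R 4.3.3. Gene positions came from GENCODE and start windows from RefSeq.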

Additional observations from a re-analysis of the deposited data

Results flagged for a closer look

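For 5 of the 8 genes, the difference by Zscan4 transcripts within the positive library had opposite signs in cells without and with Gata6 or Dab2, with counting intervals of the ratios that exclude 1 on both sides. How many of all genes met the same rule is not given here, so the count is not shown to be particular to the 8. The log2 ratio was 0.27 without and -0.30 with Gata6/Dab2 for Col4a1, and 0.38 and -0.19 for Col4a2. It was 0.19 and -0.18 for Lama1, 0.35 and -0.26 for Lamb1, and 0.27 and -0.32 for Serpinh1. The difference between these contrasts was not tested, since all cells come from 1 library. Gata6 was at 172 CPM with and 294 CPM without Zscan4 in the cells with Gata6/Dab2. In cells matched for Gata6 and Dab2 UMIs, the genes higher with Zscan4 numbered 7 of 8 at 1 UMI, 1 of 8 at 2 to 4, 8 of 8 at 5 to 9 and 5 of 8 at 10 or more, where 41.5%, 38.3%, 40.3% and 38.3% of all genes compared were higher. At 10 or more, the median log2 ratio of the 8 was 0.008. The negative sign was not shared by all bins. With classes from all UMIs, the first value turned negative for Col4a1, Lama1 and Serpinh1.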

How the results depend on the processing

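Of 307 values for the set of 8 genes under other settings, 287 kept the main result within its spread, 19 moved and 1 reversed. For medians this spread is that between the 8 genes, from the second lowest to the second highest, and not an error of the result. The values include the counts of genes at a ratio of at most 0.5, which were 0 under every setting. Of 845 values for single genes and shares, 520 stayed within counting error and 325 moved. The comparisons with and without Gata6/Dab2 kept 7 of 8 genes under all 16 settings in both libraries. With TMM factors, the count between the libraries was 3 over all cells and 2 in cells with neither transcript set, and the median log2 ratio in Gata6/Dab2 cells was 0.33; median-of-ratios factors gave the same 3, 2 and 0.33. A ratio of at least 4 left 0 genes over all cells and 0 in cells with neither. With classes from all UMIs, the median between the libraries in Gata6/Dab2 cells was 1.08 with 5 genes past the rule, and the medians by Zscan4 were -0.057 without and -0.44 with Gata6/Dab2. Classes at 5000 UMIs gave -0.14 and means of each cell's CPM -0.30 for the last of these. Classes that need 2 UMIs gave 4.06 and 4.64 for the medians by Gata6/Dab2 in the positive and negative library and -0.31 for Zscan4 with Gata6/Dab2. Classes from all UMIs gave the lowest medians by Gata6/Dab2, 2.75 in the positive and 2.81 in the negative library. Gata6 alone gave 0.47 for Zscan4 without Gata6/Dab2. Dab2 alone gave 2 genes between the libraries in cells with neither and a median of 0.27 in Gata6/Dab2 cells. The cause of these changes was not tested. No paired analysis was possible because only 1 library stands for each group, and so no library could be left out. Leaving out the barcodes found in both libraries was chosen after seeing the data. Depth limits each level: for example, the counting interval of Col4a2 in negative-library cells with neither transcript set was 4.32 to 5.05 CPM.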
